A study of Homo sapiens with 4 samples.

Results

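The 9 genes described here were grouped as B cell identity transcription factors: PAX5, EBF1, IKZF1, IKZF3, POU2F1, POU2F2, POU2AF1, SPIB and SPI1. They were taken by name, out of the 19974 protein-coding genes that RefSeq places on the autosomes and X, and all 9 were found in the RefSeq gene table. Peaks of the repressor BCL6 were assigned to a gene where the summit lay in it or within 50 kb of either end. That gave 48 peaks of 5237 in replicate 1 and 26 of 3536 in replicate 2. The cells were SUDHL5, a line established from a diffuse large B-cell lymphoma and grown with no treatment named in the labels. BCL6 was mapped by CUT&RUN, in which an antibody on permeabilised nuclei brings a nuclease to its target and the DNA cut free is sequenced. The labels name 2 biological replicates with the BCL6 antibody, and 2 with normal rabbit IgG whose values were not analysed here. All are of 1 cell line, so no comparison between conditions exists, no test between groups was made, and the spread is that between both replicates.

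BCL6 is a zinc finger repressor that germinal centre B cells depend on. EBF1 and PAX5 commit lymphoid progenitors to the B lineage and keep B cell genes active, and the zinc finger proteins Ikaros (IKZF1) and Aiolos (IKZF3) act with them. Oct-1 (POU2F1), found in most tissues, and Oct-2 (POU2F2), found mainly in lymphoid cells, bind the octamer motif of immunoglobulin promoters and recruit the coactivator OCA-B (POU2AF1), which germinal centres require. PU.1 (SPI1) and its relative Spi-B (SPIB) are ETS factors with overlapping tasks in B cells. CUT&RUN does not measure expression, so the standing of these genes as B cell factors is background here and was not checked against the cells.

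Of these 9 genes, 8 had a replicate 1 peak, against 29.5% of all protein-coding genes, and 8 had a replicate 2 peak, against 23.3%. Peaks of both replicates overlapped by at least 1 bp at 5 of them, EBF1, IKZF1, POU2F1, POU2F2 and POU2AF1, where 10.2% of all genes had such a region. At PAX5, IKZF3 and SPIB both lists had peaks, yet none shared a base, which held for 5.4% of all genes. That share is low because its base includes the many genes that lacked peaks of both lists. Among all genes with peaks of both lists, 2031 had overlapping peaks and 1078 had none that overlapped. Overlap was thus the more frequent outcome both there and at the 9 genes, and non-overlap was not rare. SPI1 had no peak of either list, as had 62.7% of all genes. Long genes have more room for peaks. Overlapping peaks were found at 9.51% of the 13716 genes whose window (the gene with 50 kb on each side) spanned under 150 kb, at 464 of 4220 genes with 150 to 250 kb and at 12.9% of 2038 genes with more.

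The windows of the 9 genes covered 2.09 Mb and held 22.9 replicate 1 peaks and 12.4 replicate 2 peaks per Mb. The windows of all protein-coding genes, merged, held 2.56 and 1.75 per Mb. The density at the 9 genes was thus 8.94 times and 7.08 times that around genes in general, and 7.85 times and 6.46 times without EBF1, the gene with most peaks. Of the 74 peaks, 35 in replicate 1 and 16 in replicate 2 had their summit inside the gene itself. EBF1 alone gave 16 and 8 of these, and the gene makes up 404 kb of its 504 kb window.

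**Figure D1:**
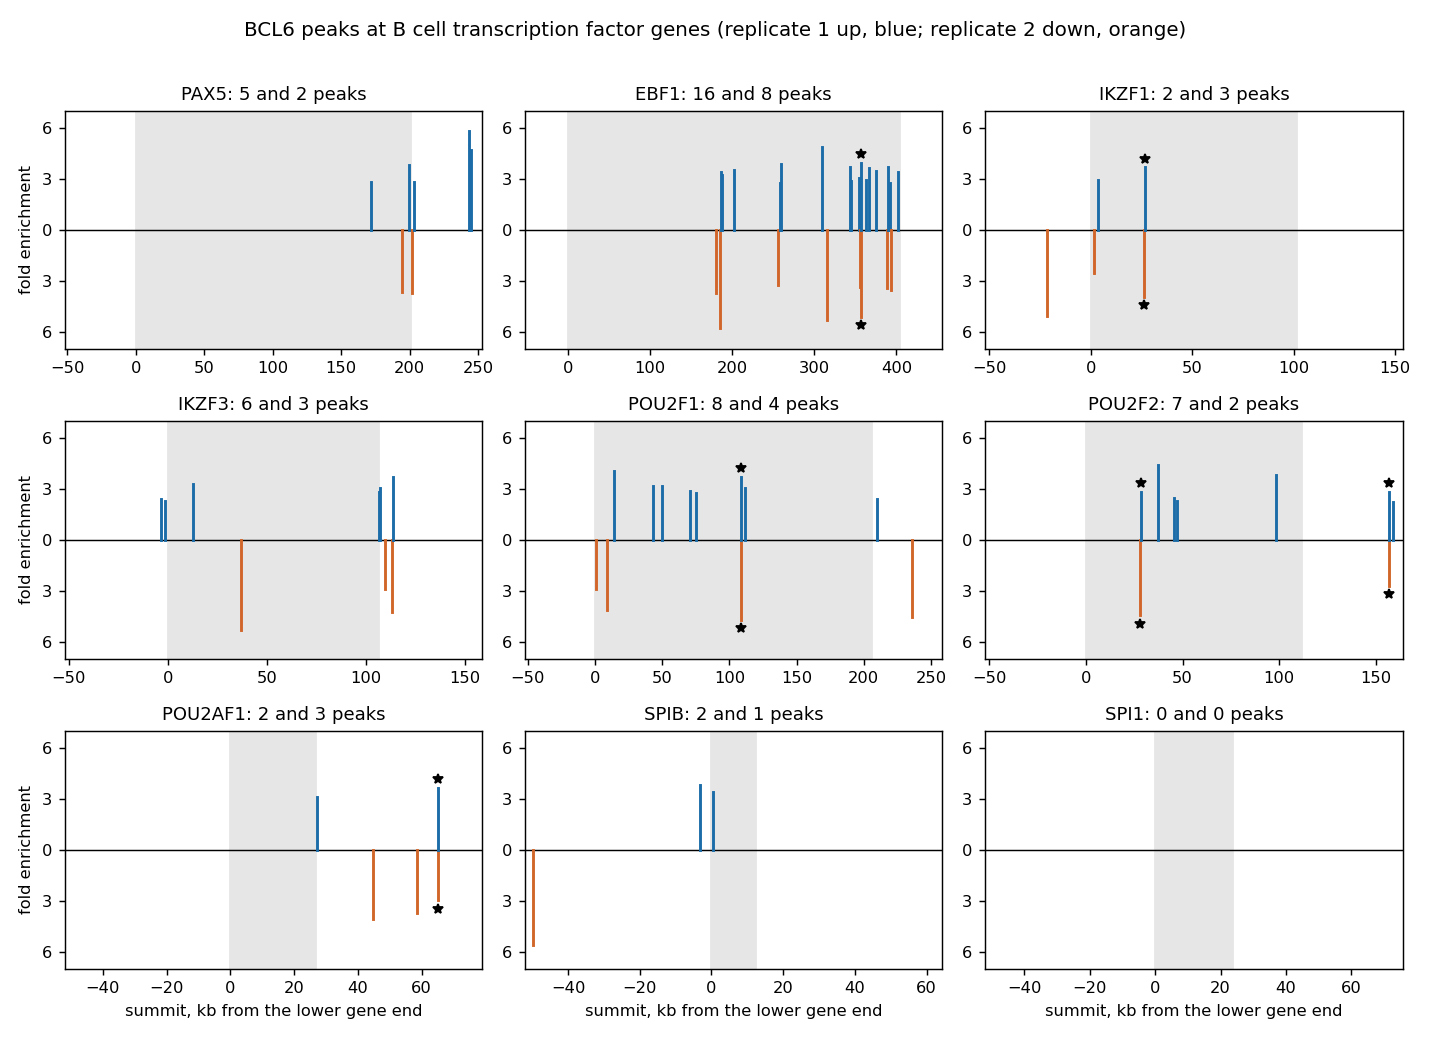
Summits of BCL6 peaks at each gene, by distance in kb from the gene's lower annotated end (x axis) and fold enrichment (y axis). Replicate 1 points up, replicate 2 points down, grey marks the gene, and stars mark peaks that overlap a peak of the other replicate. Peaks crowd into the upper part of EBF1 and PAX5, and SPI1 has none.

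RefSeq promoter sequences (GRCh38.p14, the hg38 assembly), each from 250 bases before to 50 after a start, were listed for 6 of the 9 genes in 10 windows. The windows of the POU2F1 starts at 167220885 and 167220886 are nearly the same sequence and were counted separately. A BCL6 peak covered part of 4 windows, and these 4 are shown. A peak covered the start itself only at EBF1 (replicate 1) and at the internal start of POU2F1 (replicate 2). The peaks at PAX5 and POU2F2 ended before the start and covered only the part of the window farthest from it. The sequences are written 5′ to 3′ in the direction of the gene. Capitals mark the bases under the peak of replicate 2 for PAX5 (43 bases) and of replicate 1 for EBF1 (255 bases). They mark those of replicate 1 for an internal start of POU2F2 (77 bases), and of both replicates for the internal start of POU2F1 (37 bases).
PAX5, chr9:37034219-37034518, minus strand: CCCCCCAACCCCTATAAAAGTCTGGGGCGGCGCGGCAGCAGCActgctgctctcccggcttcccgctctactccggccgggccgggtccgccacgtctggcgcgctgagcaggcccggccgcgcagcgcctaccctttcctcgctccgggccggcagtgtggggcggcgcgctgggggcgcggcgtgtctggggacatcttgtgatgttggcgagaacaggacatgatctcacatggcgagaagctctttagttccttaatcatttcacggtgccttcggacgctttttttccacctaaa
EBF1, chr5:159097907-159098206, minus strand: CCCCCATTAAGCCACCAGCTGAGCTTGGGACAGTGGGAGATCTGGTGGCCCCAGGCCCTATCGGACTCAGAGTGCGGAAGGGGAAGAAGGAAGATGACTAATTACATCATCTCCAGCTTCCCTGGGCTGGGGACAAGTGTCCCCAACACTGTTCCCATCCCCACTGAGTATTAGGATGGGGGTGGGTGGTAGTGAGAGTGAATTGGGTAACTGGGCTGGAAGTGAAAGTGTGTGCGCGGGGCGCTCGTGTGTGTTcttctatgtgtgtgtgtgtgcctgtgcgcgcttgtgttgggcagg
POU2F2, chr19:42132397-42132696, minus strand: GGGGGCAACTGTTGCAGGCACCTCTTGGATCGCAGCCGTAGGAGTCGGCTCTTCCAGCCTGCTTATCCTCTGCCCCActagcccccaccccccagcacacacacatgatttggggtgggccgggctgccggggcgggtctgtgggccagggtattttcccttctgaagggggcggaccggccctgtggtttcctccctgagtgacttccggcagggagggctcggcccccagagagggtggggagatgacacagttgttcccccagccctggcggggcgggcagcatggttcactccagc
POU2F1, chr1:167328820-167329119, plus strand: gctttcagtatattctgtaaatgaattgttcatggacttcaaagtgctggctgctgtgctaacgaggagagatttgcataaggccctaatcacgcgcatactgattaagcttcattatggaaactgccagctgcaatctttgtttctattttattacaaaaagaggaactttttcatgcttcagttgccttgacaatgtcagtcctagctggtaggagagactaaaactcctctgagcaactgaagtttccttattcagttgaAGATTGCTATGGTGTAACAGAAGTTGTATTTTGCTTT

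The internal POU2F1 window was the only one of the 10 under peaks of both replicates. The replicate 2 peak covered all 300 bases of it and the replicate 1 peak the last 37. It was also the only one of the 10 with a match to any of 5 motifs searched on both strands. It held the octamer ATGCAAAT on the minus strand, at chr1:167328891-167328898 and 179 bases before the start, in the stretch gaggagagATTTGCATaaggccct with the match in capitals. The octamer is the sequence that Oct-1 and Oct-2 themselves bind. It lay under the replicate 2 peak and outside the replicate 1 peak, which began after it. Neither summit was near it: they lay 151 bp (replicate 1) and 146 bp (replicate 2) after the start, beyond the end of the window. Of 34961 RefSeq promoter windows on chromosomes 1 to 22 and X, 1.77% held the octamer. None of the 10 windows held the BCL6 motif TTCCTNGAA (1.55% of all windows), its looser form TTCNNNGAA (7.66%, which includes every match of the stricter form), the PU.1 box GAGGAAGT (2.59%) or the EBF motif (1.21%). At such shares 10 windows are too few for an absence to be informative. Peaks covered part of only 4 windows, and the sequences of the peaks themselves were not searched.

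**Figure D2:**
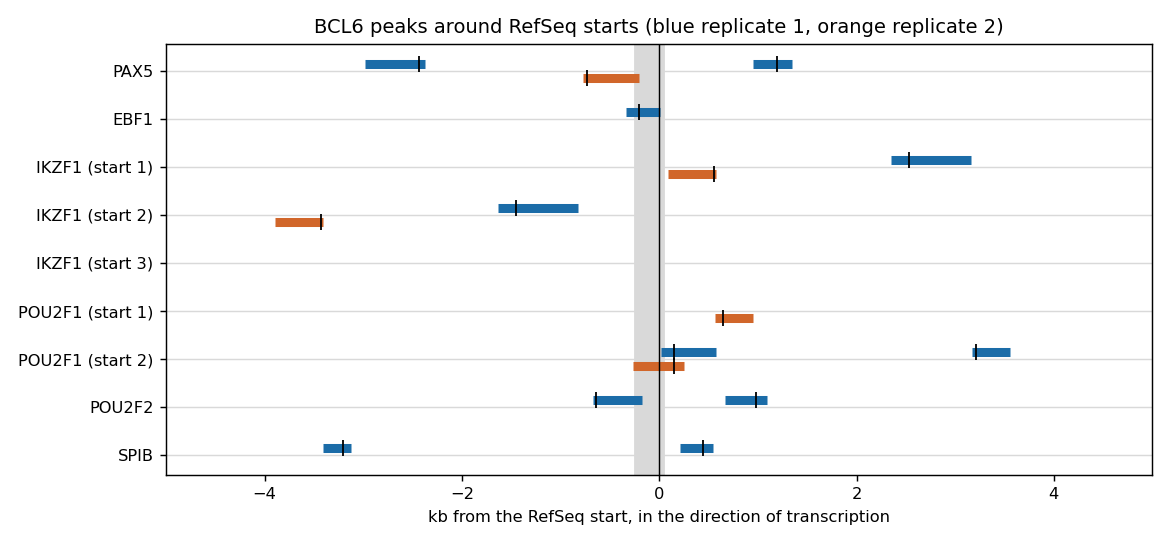
BCL6 peaks within 5 kb of the RefSeq starts of 6 genes, as distance in kb along the direction of transcription (x axis). Blue bars are replicate 1 peaks, orange bars replicate 2 peaks, ticks their summits, and grey the promoter window. At the second start of POU2F1 the replicate 2 peak covers the start and the replicate 1 peak begins 13 bp after it, and the peaks of both replicates overlap at no other start shown.

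The strength of each peak is given by the authors' fold enrichment, the ratio of coverage at the summit to the local background, and by −log10 of q, the p-value adjusted for the number of positions tested. The lowest −log10 q was 1.31 in each list. The number of fragments at a summit, here called the pileup, was solved from the authors' fold enrichment and p. Read totals are unknown. The pileups at the 9 genes ran from 11 to 63 in replicate 1 (median 22.5) and from 12 to 42 in replicate 2 (median 22), near the list medians of 23 and 21. Their exact Poisson 95% intervals are wide, 13.8 to 33.3 for a pileup of 22, and cover counting error only.

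The lineage commitment factors came first. EBF1 (gene ID 1879, chromosome 5 from 158695920 to 159099916) had 16 replicate 1 peaks and 8 replicate 2 peaks. Only 32 of all 19974 genes had 24 or more in both lists together. Its window of 504 kb is long, but of 486 genes with a window of similar length, 0.617% had 16 or more replicate 1 peaks and 0.823% had 8 or more replicate 2 peaks. Per 100 kb, EBF1 was not the densest of the 9 in either list. POU2F2 had 3.30 replicate 1 peaks against 3.17 at EBF1, and POU2AF1 had 2.36 replicate 2 peaks against 1.59. All 24 summits of EBF1 lay inside the gene and within 223 kb of its upper end, the side of its start. The lower 180.7 kb of the gene held none.

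Within EBF1 the fold enrichment ran from 2.74 to 4.87 in replicate 1 (median 3.45) and from 3.28 to 5.81 in replicate 2 (median 3.62). The highest of replicate 1, 4.87, was at chr5:159004933-159005233, and the nearest replicate 2 peak lay 5.71 kb away with 5.32. The highest of replicate 2, 5.81, was at chr5:158880746-158881139, and the nearest replicate 1 peak lay 622 bp away with 3.38. By fold enrichment the top peaks of the replicates were thus at different places in the gene, while by −log10 q and by pileup both were in the shared region described next.

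A single region of EBF1 was shared, 47 kb from the upper end, where the peaks at chr5:159053106-159053669 in replicate 1 and chr5:159052459-159053196 in replicate 2 had 91 bp in common. Its fold enrichments were 3.95 and 5.12, its −log10 q 7.72 and 9.57 and its pileups 34 and 30, with the summits 582 bp apart. Elsewhere in EBF1 no peaks overlapped. Gaps of 119, 378, 391 and 622 bp separated 4 further pairs of neighbouring peaks. Of the 8 replicate 2 peaks, 5 lay within 1 kb of a replicate 1 peak, 7 within 5 kb and 8 within 10 kb. Of the 16 replicate 1 peaks, 12 lay within 10 kb of a replicate 2 peak. The peak at the RefSeq start printed above was in replicate 1 only (3.42, −log10 q of 5.24), and the nearest replicate 2 peak lay 8.997 kb away.

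PAX5 (gene ID 5079, chromosome 9 from 36833269 to 37034268) had 5 peaks in replicate 1 and 2 in replicate 2, and none overlapped. The replicate 1 fold enrichments, from the lower to the higher coordinate, were 2.81, 3.80, 2.79, 5.83 and 4.69. Those of replicate 2 were 3.64 and 3.70. The lists interleaved around the start at the upper end of the gene. In replicate 1 the summits there lay 1.195 kb inside and 2.43 kb before the start, and in replicate 2 they lay 6.24 kb inside and 730 bp before it. The closest pair was separated by 1153 bp between edges and 1925 bp between summits, with fold enrichments of 3.80 in replicate 1 (−log10 q of 8.47, pileup 39) and 3.70 in replicate 2 (−log10 q of 5.85, pileup 30).

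The PAX5 peak with the largest fold enrichment, 5.83 in replicate 1, lay 42.7 kb before the start. It rested on a pileup of 22 over a background of 2.95, and a weaker neighbour 44.3 kb before the start rested on 11 fragments. The nearest replicate 2 peak was 41.8 kb from the former and 43.3 kb from the latter. No summit of either list fell in the lower 171.754 kb of PAX5.

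Of the Ikaros family, IKZF1 (gene ID 10320, chromosome 7 from 50303455 to 50405101) had 2 peaks in replicate 1, with fold enrichments of 2.96 and 3.68, and 3 in replicate 2, with 5.07, 2.52 and 3.93. The shared region lay inside the gene, 26.6 kb above its lower end. Here the replicate 1 peak at chr7:50329583-50330390 fell wholly within the wider replicate 2 peak at chr7:50329577-50330788. The −log10 q was 5.55 and 4.61, the pileups were 28 and 22, and the summits were 330 bp apart. Near the first RefSeq start both lists had a weak peak, but not at the same place: replicate 2 had its summit 555 bp after that start (−log10 q of 1.82) and replicate 1 at 2535 bp (−log10 q of 2.69), with a gap of 1778 bp. The highest fold enrichment at IKZF1, 5.07, belonged to a replicate 2 peak 21.6 kb below the gene with a pileup of 16, and the nearest replicate 1 peak was 25.1 kb away.

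IKZF3 (gene ID 22806, chromosome 17 from 39757715 to 39864312) had 6 replicate 1 peaks, with fold enrichments from 2.31 to 3.69, and 3 replicate 2 peaks, with 5.31, 2.87 and 4.25. No pair overlapped. Of the 9 peaks, 7 had a summit within 7.08 kb of an end of the gene. At the lower end, 2 replicate 1 peaks 1.38 and 3.50 kb outside had high pileups, 49 and 42, over high backgrounds, 20.6 and 16.7, so their fold enrichments were low, 2.31 and 2.43. At the upper end, replicate 1 summits lay 43 bp inside and 665 bp outside, and the nearest replicate 2 summit lay 2.85 kb outside.

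The closest pair at IKZF3 lay 6.47 and 7.08 kb beyond the upper end, inside the neighbouring gene ZPBP2. It was separated by 280 bp, or 609 bp between summits, with 3.69 in replicate 1 (−log10 q of 4.29) and 4.25 in replicate 2 (−log10 q of 3.34). The strongest replicate 2 peak, with 5.31 and a −log10 q of 7.998, lay inside IKZF3 at chr17:39794318-39794850, and the nearest replicate 1 peak was 23.6 kb away.

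The octamer factors and their coactivator had overlapping peaks at all 3 genes. POU2F1 (gene ID 5451, chromosome 1 from 167220885 to 167427345) had 8 replicate 1 peaks, with fold enrichments from 2.41 to 4.03, and 4 replicate 2 peaks, from 2.92 to 4.69. At its internal start, chr1:167329083-167329650 in replicate 1 and chr1:167328805-167329322 in replicate 2 had 240 bp in common. The fold enrichments were 3.73 and 4.69 and the pileups 54 (95% Poisson interval 40.6 to 70.5) and 42 (30.3 to 56.8). The summits, 151 and 146 bp after that start, were 5 bp apart. The −log10 q of 11.7 and 12.2 were the highest at any of the 9 genes, and these 2 were the only peaks there with a −log10 q of at least 10.

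No other POU2F1 peaks overlapped. At the first start of the gene replicate 2 had a summit 645 bp downstream (2.92), while the nearest replicate 1 summit lay 14.5 kb downstream (4.03). Replicate 1 had 4 peaks between 43.3 and 75.3 kb into the gene, with fold enrichments from 2.76 to 3.17, and the nearest replicate 2 peak was 32.6 kb or more from each. The peaks beyond the upper end were closer to another gene: the replicate 1 summit lay 141 bp from CD247, which encodes the T cell receptor zeta chain, and the replicate 2 summit lay inside it.

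POU2F2 (gene ID 5452, chromosome 19 from 42086110 to 42197936) had 7 peaks in replicate 1, with fold enrichments from 2.22 to 4.40, and 2 in replicate 2, with 4.43 and 2.70. Both replicate 2 peaks overlapped a replicate 1 peak, which was so for no other gene of the 9. The region inside the gene, 28.3 kb above its lower end, had 2.83 in replicate 1 (−log10 q of 3.11, pileup 27) and 4.43 in replicate 2 (−log10 q of 8.68, pileup 33), with the summits 43 bp apart. The second region, at chr19:42242713-42243109, had 2.82 and 2.70 with the summits 107 bp apart. It lay 45.04 kb outside POU2F2 and, in replicate 1, 371 bp from an end of GSK3A, a kinase gene, so only the width of the window assigns it to POU2F2. Its replicate 1 pileup of 63 over a background of 21.7 was the highest at the 9 genes. The RefSeq start listed for POU2F2 lay inside the gene. Around it, replicate 1 alone had summits 646 bp before (2.29) and 983 bp after (2.44). These summits lay 64.8 and 66.5 kb from the upper end, where the gene begins on the minus strand. The peak nearest to that end was a replicate 1 peak 13.6 kb inside the gene (3.80).

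POU2AF1 (gene ID 5450, chromosome 11 from 111352255 to 111379275) had 2 replicate 1 peaks, with 3.13 and 3.67, and 3 replicate 2 peaks, with 4.04, 3.70 and 2.97. No summit lay inside the gene. Replicate 1 had one 316 bp beyond the upper end (3.13, −log10 q of 5.47, pileup 36), and the nearest replicate 2 peak was 17.2 kb away. The shared region lay 38.3 kb beyond the upper end, inside BTG4. There the peaks at chr11:111417197-111417710 and chr11:111417175-111417648 had 452 bp in common, with fold enrichments of 3.67 and 2.97, −log10 q of 8.44 and 4.72, pileups of 41 and 36, and the summits 95 bp apart.

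The ETS genes had the fewest peaks, and their windows, 112 kb for SPIB and 124 kb for SPI1, were the shortest of the 9. Per 100 kb, SPIB had 1.78 replicate 1 and 0.89 replicate 2 peaks. Those densities lay between the ones of PAX5 (1.66 and 0.66) and EBF1 (3.17 and 1.59). SPIB (gene ID 6689, chromosome 19 from 50418938 to 50431314) had 2 replicate 1 peaks, 3.21 kb before its start (3.85, −log10 q of 6.46, pileup 30) and 448 bp after it (3.40, −log10 q of 2.75, pileup 17). The former lay inside the neighbouring gene POLD1. The replicate 2 peak (5.60, −log10 q of 7.88) was 49.8 kb below SPIB and 189 bp from an end of NAPSA, so both lists were counted at SPIB with 46.3 kb between the closest of the peaks assigned to it. At the edge of the 50 kb window, this was the peak just inside, and the peak just outside was 62.9 kb from IKZF1 (replicate 2, 4.96).

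At SPI1 (gene ID 6688, chromosome 11 from 47354860 to 47378547) the nearest summit lay 106 kb away in replicate 2 (3.32) and 140 kb away in replicate 1 (2.73). Absence from both lists does not show that BCL6 was absent, since most peaks of each list were found in that list alone.

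The replicate 1 peaks at these genes were weaker than their list in general, and the replicate 2 peaks were near the middle of theirs. In replicate 1 the median fold enrichment was 3.20 for the 48 peaks against 3.55 for the whole list, and 18 of 48 exceeded that list median. In replicate 2 it was 3.82 for the 26 peaks against 3.74, and 13 of 26 exceeded it. A −log10 q of at least 5 was reached by 11 of 48 peaks in replicate 1 (22.9%, against 34.8% of the list) and by 10 of 26 in replicate 2 (38.5%, against 32.6%). One of at least 10 was reached by 1 of 48 peaks (2.08%, against 9.50% of the list) and by 1 of 26 (3.85%, against 9.27%). The highest fold enrichments, 5.83 at PAX5 and 5.81 at EBF1, compare with 18.8 and 18.2 as the highest of each list.

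**Figure D3:**
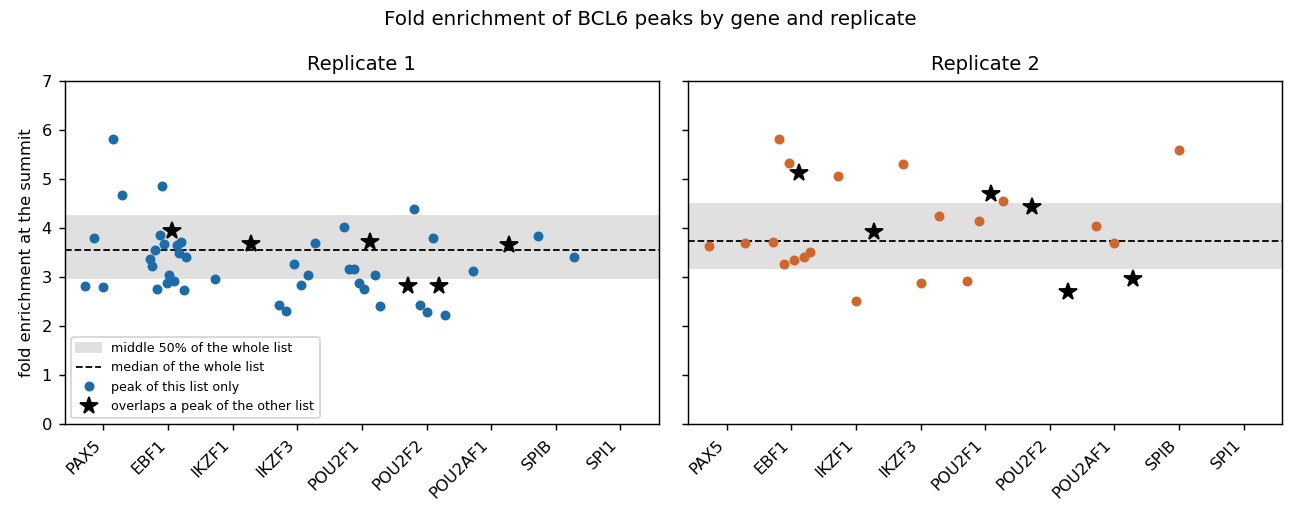
Fold enrichment at the summit (y axis) of each BCL6 peak by gene, with replicate 1 on the left and replicate 2 on the right. Points are single peaks, stars those that overlap a peak of the other replicate, the dashed line the list's median (3.55 and 3.74) and the band its middle 50%. In replicate 1, 18 of 48 points lie above the median and in replicate 2, 13 of 26, and the highest point of each replicate is not starred.

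The 6 shared regions had higher pileups than the other peaks at these genes. In replicate 1 their pileups ran from 27 to 63 (median 37.5) against 11 to 49 (median 22) for the 42 peaks that overlapped nothing. In replicate 2 they ran from 22 to 42 (median 34.5) against 12 to 38 (median 17.5) for 20 peaks. The ranges overlapped in both lists. Fold enrichment separated them less, with medians of 3.67 against 3.17 in replicate 1 and 4.18 against 3.71 in replicate 2. The pileup was higher in replicate 1 for 5 of the 6 regions and the fold enrichment higher in replicate 2 for 4 of 6. The same difference in pileup ran through the lists as a whole, with medians of 31 against 21 in replicate 1 and 26 against 18 in replicate 2.

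Overlap between replicates was less frequent here than in the lists as a whole. Of the 48 replicate 1 peaks, 6 overlapped a replicate 2 peak (12.5%, against 25.7% of the list), and of the 26 replicate 2 peaks, 6 overlapped a replicate 1 peak (23.1%, against 38.4%). Within 1 kb, the shares were also lower, at 11 of 48 (22.9%, against 33.1%) and 11 of 26 (42.3%, against 48.1%). Within 10 kb, edge to edge and overlaps included, 27 of 48 had a replicate 2 peak (56.25%, against 47.3%) and 20 of 26 a replicate 1 peak (76.9%, against 62.1%). Without EBF1 these were 15 of 32 (46.9%) and 12 of 18 (66.7%). Peaks in a dense group are close to each other by position alone, and the difference from the lists was not tested.

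**Figure D4:**
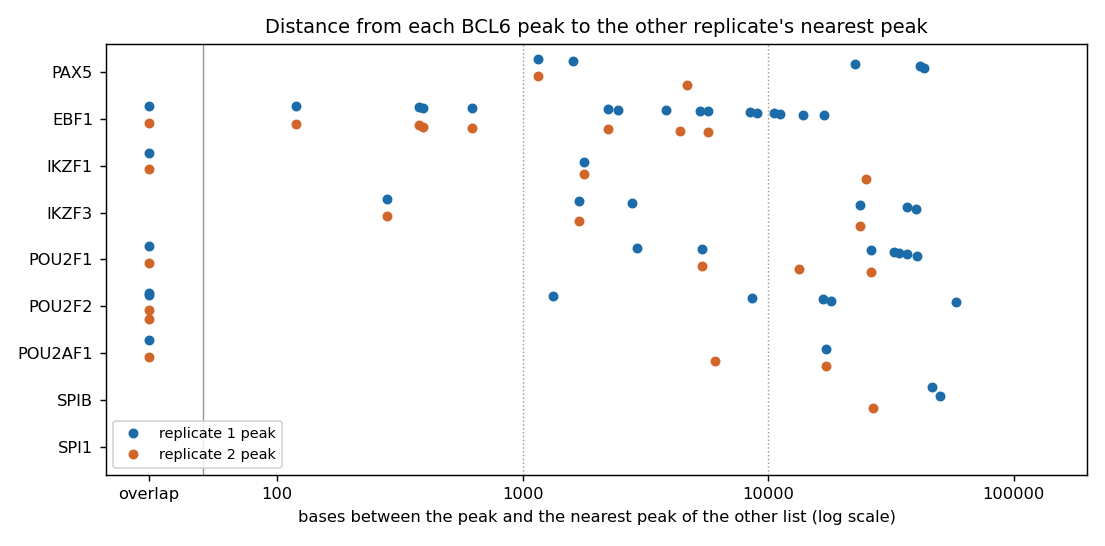
Bases between each BCL6 peak and the nearest peak of the other replicate (x axis, log scale, with overlapping peaks at the left), by gene. Blue points are replicate 1 peaks and orange points replicate 2 peaks. EBF1 has most of the gaps under 1 kb, the closest gap at PAX5 is 1153 bases and that at IKZF3 is 280, and the SPIB points are at 26.9 kb or more.

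Other transcription factor genes were counted the same way. Of 25 further factors of the B lineage or of activated B cells, 19 had a replicate 1 peak, 19 a replicate 2 peak and 15 overlapping peaks, with a median window of 216 kb against 207 kb for the 9 genes and 124 kb for all genes. Ranked by the lower of the replicates' fold enrichments, the top 4 were BCL6 itself (6.38 and 11.5), XBP1 (5.92 and 5.87), a regulator of secretory cells, and the ETS factors ETV6 (5.54 and 4.82) and ETS1 (4.51 and 4.88). Each exceeded the strongest shared region at the 9 genes by this measure, that of EBF1 (3.95 and 5.12). FOXP1 had the most shared regions of the 25, with 7, and also the longest window, 729 kb. No peak of either list was found at IRF4, MYB, RUNX3 and FLI1.

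Of 10 family relatives of the 9 genes, 7 had no peak of either list, near the 62.7% of all genes, and 0 had overlapping peaks, against 10.2%. Of PAX2, PAX8, EBF2, EBF3, EBF4, IKZF2, IKZF4, IKZF5, POU2F3 and SPIC, replicate 1 had peaks at 2 (IKZF2 with 3 and IKZF4 with 1) and replicate 2 at 1 (POU2F3). Of 20 factors that define other lineages, 17 had no peak of either list, against 62.7% of all genes. Among these 17 were GATA1 (erythroid), CEBPA (myeloid) and HNF4A (liver). Of the 20, 2 had a replicate 1 peak, 3 a replicate 2 peak and 1 overlapping peaks. These counts lay below the 29.5% and 23.3% of all genes, and their windows were short, with a median of 113 kb. No test was made of these differences between gene lists.

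**Figure D5:**
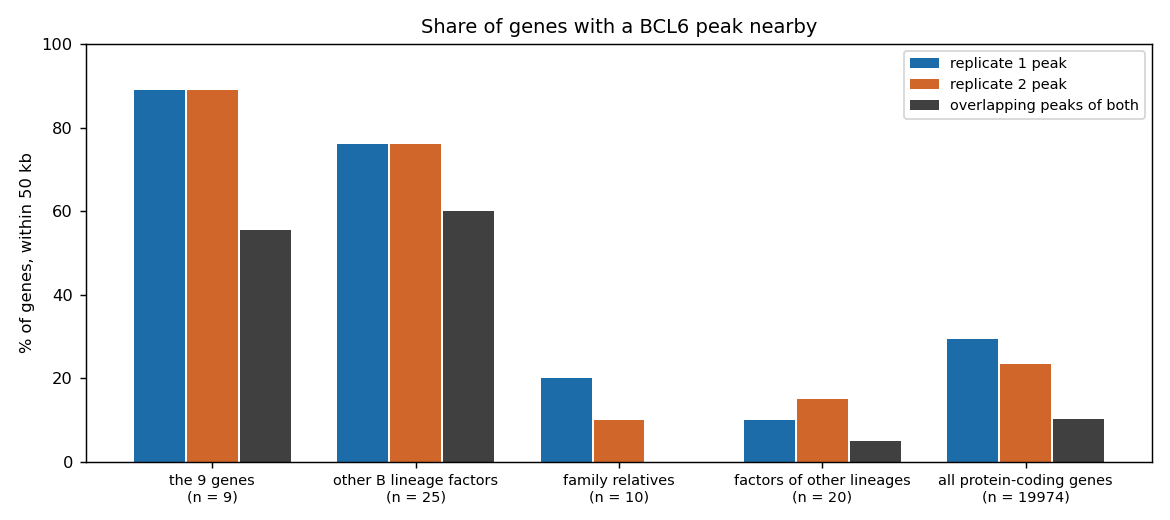
Share of genes with a BCL6 peak within 50 kb (y axis, %) for the 9 genes, 25 other B lineage factors, 10 family relatives, 20 factors of other lineages and all 19974 protein-coding genes. Blue bars are replicate 1 peaks, orange bars replicate 2 peaks and dark bars overlapping peaks of both. The 9 genes and the other B lineage factors stand above all genes in each measure.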

How the data were processed

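The tools named in the submitters' processing notes are MACS2, Bowtie2, bedtools, Picard, cutadapt, deepTools, FastQC and SAMtools, with the build hg38. Their versions and settings, and the control behind the peaks, were not given in the sources used here. Peaks were called per sample. The deposited narrowPeak columns hold the authors' fold enrichment (a ratio) and the authors' −log10 p and −log10 q at the summit. The deposited score column equals 10 times −log10 q, cut to a whole number, in all 8773 peaks and was not used. Libraries were made with 14 PCR cycles, per the labels.

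Summits were placed by start plus offset, and gene ends came from RefSeq (GRCh38.p14, the hg38 assembly). Overlap meant at least 1 bp. Pileups solve fold enrichment = (pileup + 1) / (background + 1) with a Poisson p, and all 48 and 26 peaks at the 9 genes were solved within 0.001. The solving was tested on simulated data made with the same formula. That test cannot show whether the formula fits the authors' settings. Python 3.11.15, pandas 2.3.3 and scipy 1.17.1 were used. No test across genes was made, since 1 group of 2 samples gives no contrast. The IgG libraries were not analysed here. The 9 genes and the comparison lists were chosen with earlier results of these data known. All 9 genes were named whatever their values, with the 4 strongest of the further B lineage factors. The family relatives had no overlapping peaks to rank. FOXP1, the relatives, the lineage examples and the genes without peaks were named after their values were seen. The values of 1 gene among the factors of other lineages are not reported here.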

Additional observations from a re-analysis of the deposited data

How the results depend on the processing

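The counts at the 9 genes were recomputed with other windows, thresholds and matching rules. A minimum −log10 q of 5 left 11 peaks in replicate 1 and 10 in replicate 2, and 2 genes with 2 shared regions, EBF1 and POU2F1. With at least 10, each list kept 1 peak at 1 gene, the shared region at POU2F1, so 1 gene had a shared region and 0 had peaks of both lists without overlap. Requiring a reciprocal overlap of 50% left 3 genes with 3 shared regions (IKZF1, POU2F2 and POU2AF1) and 5 genes with peaks of both lists and no match. The POU2F2 region that remained was the one beside GSK3A, and that of POU2AF1 lay inside BTG4. Only IKZF1 thus kept a shared region inside the gene itself. Matching by summits within 200 bp also left 3 genes (POU2F1, POU2F2 and POU2AF1) and 5 without a match. Gene bodies alone held 16 replicate 2 peaks. With a window of 10 kb SPIB and POU2AF1 lost their replicate 2 peaks, and POU2AF1 its shared region, which also lay closer to another gene. The other counts stayed within 1.5 times the reported ones. No paired analysis was possible because the IgG samples with the same replicate numbers had no values here. A count that needs both lists has no value without either replicate. Pileups of 11 to 63 fragments, with read totals unknown, limit what can be said of any peak found in 1 list.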
